A study of Mus musculus with 8 samples.

Results

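The alternatively activated macrophage genes are 9 genes that macrophages are known to switch on under type 2 cytokines or interleukin 10. They were taken by name from the deposited expression table: Arg1, Chi3l3, Chi3l4, Retnla, Mrc1, Cd163, Il4ra, Il10 and Ccl24, which is 9 of the 34586 gene symbols in the table, each with 1 row. Their levels were measured by RNA sequencing of 8 tumors explanted from the cecum of C57BL/6 mice, 4 from a tamoxifen group and 4 from a vehicle group. The tumors model the gastrointestinal stromal tumor, a sarcoma related to the pacemaker cells of the gut wall. Mice of both groups carried the mutant Kit V558Delta/+ genotype, Etv1 flox/flox and Rosa26 CreERT2/CreERT2, and the labels set them apart by tamoxifen or vehicle. The Rosa26 locus is active in most cell types, so the recombinase that tamoxifen activates is not limited to tumor cells and could delete Etv1 in host cells too. Tamoxifen-treated tumors without the floxed alleles were not analysed here, and an effect of tamoxifen itself cannot be told apart from one of Etv1 loss. Age, sex, dose and duration of treatment were not stated.

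Interleukin 4 and interleukin 13 bind receptors that contain the product of Il4ra, and the signal runs through Janus kinases to the transcription factor Stat6. In mouse macrophages Stat6 induces Arg1, Chi3l3, Retnla, Mrc1 and Ccl24, while Cd163 is better known as a gene induced by interleukin 10 and glucocorticoids. Such macrophages are known from helminth infection, from tissue repair in the gut wall and from many tumors. They are commonly set against macrophages activated by interferon gamma, which use arginine to make nitric oxide.

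Chi3l3 and Chi3l4 encode the secreted chitinase-like lectins Ym1 and Ym2 and lie side by side on chromosome 3, at 105950472 to 106022425 in mm9, where the deposited table gives both the same locus. Their coding sequences are shown because reads of such close copies can be split between them by the authors' counting. In the GENCODE M21 transcripts (GRCm38) the coding sequences of Chi3l3 (1194 bases) and Chi3l4 (1206 bases) were identical at 1139 of 1206 aligned positions, or 94.4%. Of all stretches of 50 bases in the Chi3l3 coding sequence, 20.7% also occurred in Chi3l4, and the longest identical run was 136 bases. The 90 coding bases that differ most, bases 827 to 916 in both genes, hold 12 differences, given in capitals:
Chi3l3: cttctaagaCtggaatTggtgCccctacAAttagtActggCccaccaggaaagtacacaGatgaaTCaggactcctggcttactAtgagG
Chi3l4: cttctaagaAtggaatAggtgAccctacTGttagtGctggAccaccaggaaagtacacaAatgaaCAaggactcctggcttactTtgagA

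Promoters are shown for Chi3l3, its neighbour Chi3l4, and Retnla, since Chi3l3 and Retnla are known targets of the same factor and their groups lay apart in opposite directions. RefSeq promoter sequences (GRCm38.p6, 250 bases before to 50 after the start site) were found for 6 of the 9 members. Each was searched for TTCNNNNGAA, the spacing that Stat6 is known to prefer, and for TTCNNNGAA, the spacing of other Stat factors. Each motif reads the same on both strands. The first occurs in 6.95% and the second in 8.3% of the 32851 mouse promoters of this length. Retnla had 1 match to the first motif and none to the second, and Chi3l3 and Chi3l4 had 1 match each to the second and none to the first. Mrc1, Cd163 and Il4ra had no match to either motif in this window. The 250 bases before the start site follow, with the matches in capitals. They are chr3:106167565-106167814 on the minus strand for Chi3l3, chr3:106219480-106219729 on the minus strand for Chi3l4, and chr16:48842359-48842608 on the plus strand for Retnla.
Chi3l3: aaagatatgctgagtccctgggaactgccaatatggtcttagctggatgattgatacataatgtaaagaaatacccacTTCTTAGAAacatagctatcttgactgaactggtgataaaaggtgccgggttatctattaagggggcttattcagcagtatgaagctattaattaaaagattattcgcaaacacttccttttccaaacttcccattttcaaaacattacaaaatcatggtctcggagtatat
Chi3l4: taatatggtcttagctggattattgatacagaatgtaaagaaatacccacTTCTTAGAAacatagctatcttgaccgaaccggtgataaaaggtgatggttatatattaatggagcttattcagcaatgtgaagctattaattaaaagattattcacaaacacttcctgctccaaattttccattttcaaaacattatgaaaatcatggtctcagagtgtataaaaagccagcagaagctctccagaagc
Retnla: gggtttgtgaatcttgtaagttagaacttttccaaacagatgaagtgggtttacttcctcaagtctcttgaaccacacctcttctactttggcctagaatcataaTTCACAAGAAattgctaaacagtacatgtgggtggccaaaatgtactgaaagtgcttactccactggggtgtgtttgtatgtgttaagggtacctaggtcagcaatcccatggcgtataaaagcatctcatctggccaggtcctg

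Values are FPKM, the fragments counted for a gene divided by transcript length and library size, so levels of different genes can be compared. Groups were compared with limma on log2(FPKM + 1), with p-values adjusted by the Benjamini-Hochberg method over all 15023 genes with a mean of at least 1 FPKM and called at an adjusted p under 0.05. Read depth is unknown, but the steps between low values placed all libraries within 1.42-fold of each other in depth. The search covered a limited range around vehicle replicate 1, so a library far outside that range could not have been placed. Etv1, the floxed gene, averaged 25.8 ± 8.60 FPKM in tamoxifen tumors and 41.2 ± 7.03 FPKM in vehicle tumors (SD, n = 4 each; adjusted p = 0.13), and tamoxifen replicate 1, at 34.9 FPKM, lay within the vehicle range. The labels do not say that each replicate is another mouse, so the p-values reflect only how far these samples spread. All 16 genes of a core macrophage list were tested, among them the complement genes C1qa, C1qb and C1qc at 108 to 361 FPKM, so macrophage RNA was present in every tumor. In bulk tumor RNA, fewer macrophages and less of a transcript per macrophage cannot be told apart.

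The 9 genes did not move together. Chi3l3 rose after tamoxifen, and it alone among the 6 members with enough signal to test passed the threshold, where 5.45% of all tested genes passed in either direction, 2.38% upward and 3.07% downward. Arg1, Mrc1 and Cd163 also averaged higher in the tamoxifen group and Retnla averaged lower, without passing. The median log2 fold change of the 6 was 1.09, and that of all tested genes 0.01. Il4ra had the smallest fold change of the 6, and Chi3l4, Il10 and Ccl24 were too low to test. In vehicle tumors the means ran down from Il4ra (30.9 FPKM) through Mrc1 (14.9), Arg1 (4.12), Retnla (4.01), Cd163 (1.70) and Chi3l3 (1.28) to Il10 (0.448) and Ccl24 (0.133). In that order Arg1, Retnla, Cd163 and Chi3l3 overlapped their neighbours, and Chi3l3 overlapped Il10, while every vehicle tumor had more Il4ra than Mrc1 and more Mrc1 than Arg1. In tamoxifen tumors the mean of Retnla was 0.499 FPKM, and every value of it lay under those of Cd163 and Chi3l3.

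**Figure D1:**
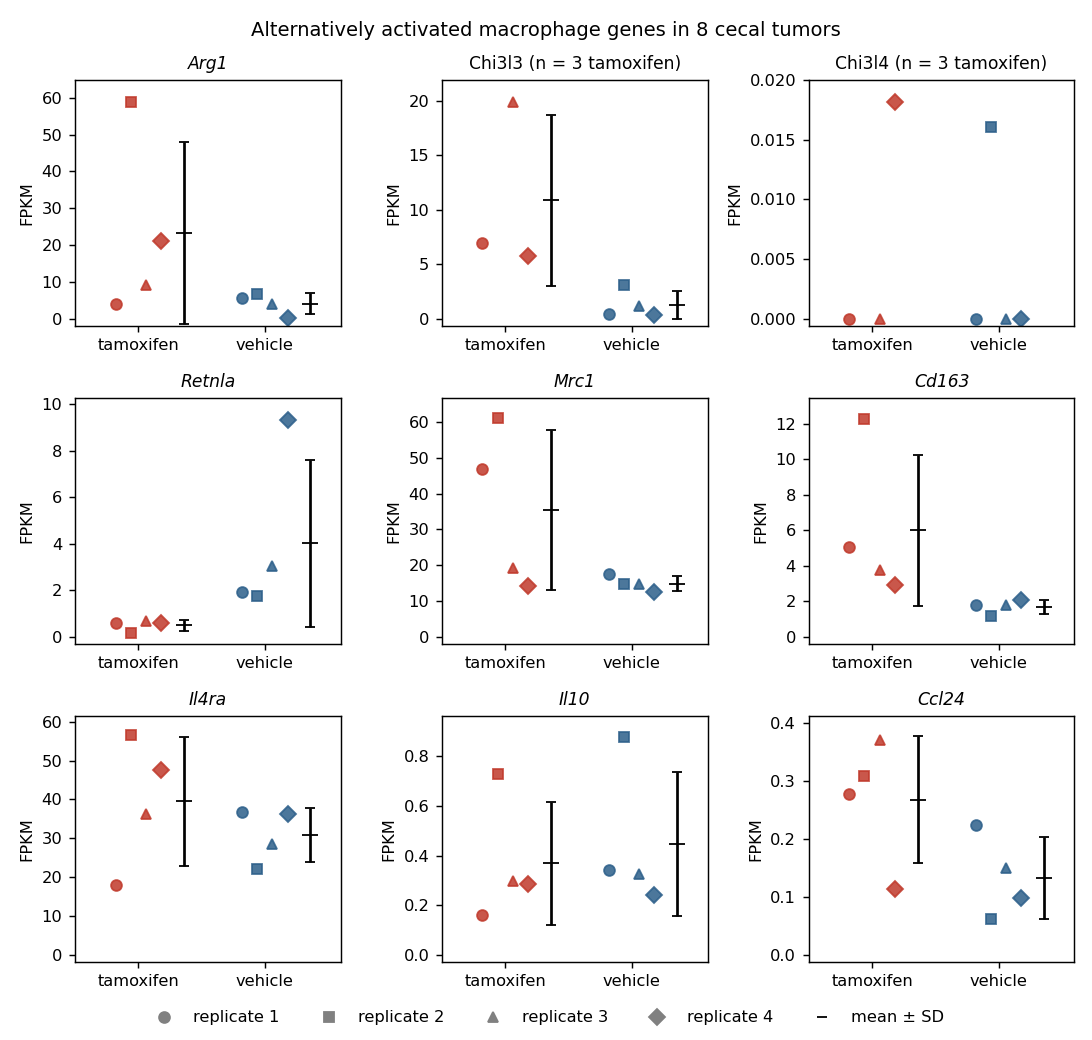
FPKM of the 9 members in the 4 tamoxifen tumors (left, red) and the 4 vehicle tumors (right, blue) on linear axes of different height; symbols give the replicate, and black bars give the mean ± SD (no bar for Chi3l4, which is near 0). The tamoxifen tumors lie above all vehicle tumors for Chi3l3 (3 tamoxifen values, 5.74 to 19.9 FPKM) and Cd163 and below them for Retnla, and tamoxifen replicate 2 is highest for Arg1, Mrc1, Cd163 and Il4ra.

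Among the secreted effectors, Chi3l3 measured 6.94, 19.9 and 5.74 FPKM in tamoxifen replicates 1, 3 and 4, against 0.469, 3.13, 1.18 and 0.358 FPKM in vehicle replicates 1 to 4. The groups did not overlap, and tamoxifen replicate 3 stood well above the rest. The estimate of tamoxifen replicate 2 had failed in the authors' quantification and was treated as missing. The means were 10.9 ± 7.86 FPKM after tamoxifen (SD, n = 3) and 1.28 ± 1.28 FPKM after vehicle (SD, n = 4). The log2 fold change was 2.34 (SE 0.51, limma adjusted p = 0.0457). This call was close to the threshold: with the failed value kept as the listed 0 the log2 fold change was 1.49 (adjusted p = 0.338), without a filter on low values the adjusted p was 0.0821, and with the identifier range described for Mrc1 as a covariate it was 0.0672. Leaving out any library but vehicle replicate 2 also ended it, the highest adjusted p being 0.111, without vehicle replicate 3. Tamoxifen replicate 2 holds no Chi3l3 value. Without it the log2 fold change stayed at 2.34, and only the limma adjusted p moved, to 0.0619.

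Chi3l4 was listed at 0 FPKM in tamoxifen replicates 1 and 3 and at 0.0182 FPKM in replicate 4, against 0 in vehicle replicates 1, 3 and 4 and 0.0161 FPKM in replicate 2. Its estimate failed in tamoxifen replicate 2 as well. Nearly all signal assigned to the pair was therefore given to Chi3l3, and how the authors' counting treated reads that fit both copies is not given in the sources used here.

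Retnla encodes resistin-like molecule alpha, a small secreted protein of macrophages and mucosal tissue (chromosome 16, 48842665 to 48844574 in mm9). It measured 0.584, 0.159, 0.675 and 0.576 FPKM in the tamoxifen tumors, against 1.93, 1.75, 3.05 and 9.33 FPKM in the vehicle tumors. Every tamoxifen value lay below every vehicle value, and vehicle replicate 4 was the highest of all. The tamoxifen mean was 0.499 ± 0.231 FPKM and the vehicle mean 4.01 ± 3.59 FPKM (SD, n = 4 each). The log2 fold change was -1.53 (SE 0.40, limma adjusted p = 0.066), so Retnla did not pass. It passed with smaller pseudocounts, which weigh low values more (adjusted p = 0.0426 with 0.1 FPKM and 0.0454 with 0.25 FPKM), and with the identifier range as a covariate (0.0265). Retnla entered the test through its vehicle values, since the tamoxifen mean was under 1 FPKM.

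The ratio of the 2 genes within a tumor is given as a description, since it follows from the values above. Chi3l3 was 11.9, 29.5 and 9.95 times as abundant as Retnla in tamoxifen replicates 1, 3 and 4, against 0.243, 1.79, 0.386 and 0.0384 times in vehicle replicates 1 to 4. Chi3l3 exceeded Retnla in all 3 tamoxifen tumors with an estimate, and among vehicle tumors in replicate 2 alone. Of the tested genes, 15.1% had groups that did not overlap, 7.37% with tamoxifen higher and 7.74% with tamoxifen lower. Among the 6 tested members Chi3l3 and Cd163 were of the first kind and Retnla of the second. For Chi3l3 this rests on 3 against 4 values, where groups lie apart by chance more easily than with 4 against 4. The shares of all tested genes come mostly from 4 against 4 values.

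Arg1 encodes arginase 1, which splits arginine into ornithine and urea (chromosome 10, 24635014 to 24647276). It measured 3.97, 58.8, 9.06 and 21.1 FPKM in the tamoxifen tumors, against 5.63, 6.58, 3.99 and 0.260 FPKM in the vehicle tumors. Tamoxifen replicate 2 was the highest of all and vehicle replicate 4 the lowest, and the groups overlapped through tamoxifen replicate 1, which was lower than 3 vehicle tumors. The means were 23.2 ± 24.8 FPKM after tamoxifen and 4.12 ± 2.79 FPKM after vehicle (SD, n = 4 each), and the log2 fold change was 1.93 (SE 0.83, limma adjusted p = 0.215). Without tamoxifen replicate 2 the log2 fold change was 1.29. The highest and lowest tamoxifen tumors differed 14.8-fold, the widest spread in that group among members above 0 in every library.

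Ccl24, the eotaxin that draws eosinophils through the receptor Ccr3, measured 0.277, 0.308, 0.369 and 0.114 FPKM in the tamoxifen tumors, against 0.223, 0.0610, 0.149 and 0.0980 FPKM in the vehicle tumors. The 3 highest values were from tamoxifen tumors and the groups overlapped. Il10, the cytokine that restrains macrophage activation and induces Cd163, measured 0.161, 0.729, 0.296 and 0.286 FPKM in the tamoxifen tumors, against 0.343, 0.879, 0.327 and 0.243 FPKM in the vehicle tumors. Replicate 2 was the highest tumor of each group. At these levels the deposited confidence bounds were wide, for example 0.0170 to 0.305 FPKM for Il10 in tamoxifen replicate 1 and 0.187 to 1.56 FPKM in vehicle replicate 2. Without a filter on low values, neither passed (limma adjusted p = 0.289 for Ccl24 and 0.832 for Il10), nor did Chi3l4 (0.935).

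Among the receptors, Mrc1 encodes the mannose receptor CD206, which takes up glycoproteins and microbes (chromosome 2, 14151041 to 14253684, a locus that also holds Mir511, listed at 0 FPKM in every library). Mrc1 measured 46.8, 61.1, 19.3 and 14.3 FPKM in the tamoxifen tumors, against 17.5, 14.8, 14.7 and 12.5 FPKM in the vehicle tumors. Tamoxifen replicates 1 and 2 stood far above every vehicle tumor, replicate 3 just above them, and replicate 4 lay within their range. The means were 35.4 ± 22.3 FPKM after tamoxifen and 14.9 ± 2.07 FPKM after vehicle (SD, n = 4 each; log2 fold change 0.97, SE 0.42, limma adjusted p = 0.221). The vehicle tumors spanned 1.4-fold and the tamoxifen tumors 4.28-fold. Tamoxifen replicates 1 and 2, like vehicle replicates 1 to 3, carry identifiers of the lower range and tamoxifen replicates 3 and 4 and vehicle replicate 4 of the higher, and what the ranges stand for is not stated. With that range as a covariate Mrc1 passed (log2 fold change 1.24, adjusted p = 0.0438) and Chi3l3 did not.

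Cd163, the scavenger receptor for haemoglobin bound to haptoglobin (chromosome 6, 124254669 to 124280545), measured 5.04, 12.3, 3.76 and 2.90 FPKM in the tamoxifen tumors, against 1.82, 1.15, 1.77 and 2.07 FPKM in the vehicle tumors. Every tamoxifen tumor exceeded every vehicle tumor, replicate 2 by far the most. The means were 5.99 ± 4.28 FPKM after tamoxifen and 1.70 ± 0.390 FPKM after vehicle (SD, n = 4 each), with a log2 fold change of 1.21 (SE 0.35, limma adjusted p = 0.0857). Without tamoxifen replicate 2 the groups still did not overlap and the log2 fold change was 0.85 (adjusted p = 0.0785), and Cd163 passed when the fit weighted the libraries by quality (0.0443).

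Il4ra, the receptor chain shared by interleukin 4 and interleukin 13 (chromosome 7, 132695785 to 132722986), had the highest mean of the 9 in both groups. It measured 18.1, 56.7, 36.1 and 47.5 FPKM in the tamoxifen tumors, against 36.7, 22.2, 28.5 and 36.3 FPKM in the vehicle tumors. The vehicle range lay inside the tamoxifen range. The log2 fold change was 0.26 (SE 0.34, limma adjusted p = 0.687).

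**Figure D2:**
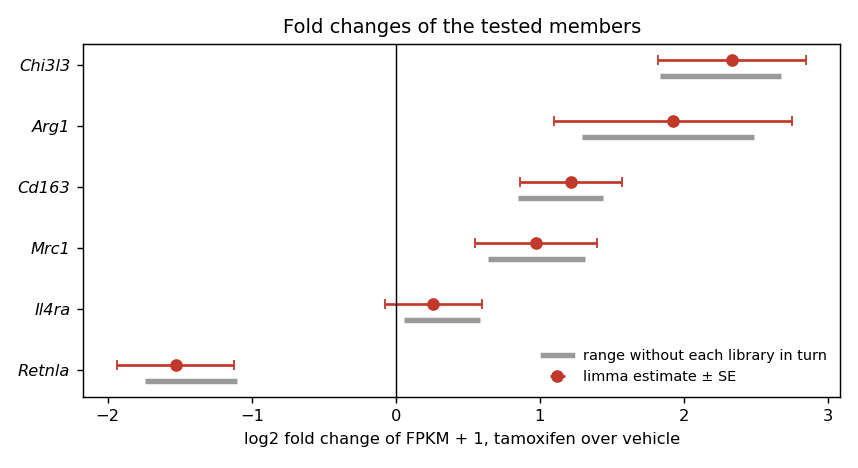
Log2 fold change of FPKM + 1 (tamoxifen over vehicle, horizontal axis) for the 6 tested members, with red points for the limma estimate and bars for its SE; grey bars give the range when each library is left out in turn. Chi3l3 is furthest to the right at 2.34 and Retnla is the only member left of 0, at -1.53; no grey bar crosses 0.

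Tamoxifen replicate 2 had the highest level of 4 of the 5 tested members measured in it, Arg1, Mrc1, Cd163 and Il4ra, and the lowest Retnla. It was also the highest library for 12 of the 16 core macrophage genes, and tamoxifen replicate 3 was the lowest for 11. The mean log2 level of the core list was 5.77, 6.58, 5.09 and 5.85 in the tamoxifen tumors, against 5.93, 5.59, 5.47 and 5.57 in the vehicle tumors (difference 0.18, exact 2-sided permutation p = 0.629 with n = 4 each). No gene of the list passed limma, and its median log2 fold change was 0.15. Mertk, a receptor for engulfing dead cells, came nearest among the higher genes (log2 fold change 1.11, adjusted p = 0.0762) and Cx3cr1, the fractalkine receptor, among the lower genes (-1.12, adjusted p = 0.0955).

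Each member was then set against the core list of its own tumor, as log2(FPKM + 1) minus the mean of the 16 core genes. The list is not limited to macrophages. Itgam, for example, is a gene of myeloid cells more widely and averaged 14.4 FPKM after tamoxifen and 3.25 FPKM after vehicle. Of the 16 genes, 10 had positive and 6 negative changes. Among 6 tested neutrophil markers 4 rose, and the part of neutrophils in the core mean was not tested. On this scale Cd163 was at -3.19 ± 0.49 in tamoxifen tumors and -4.22 ± 0.28 in vehicle tumors (SD, n = 4 each; difference 1.03, exact permutation p = 0.0286, the lowest possible with 70 arrangements). All 4 tamoxifen values were above all 4 vehicle values. Retnla was 1.71 lower after tamoxifen (-5.26 ± 0.83 against -3.54 ± 0.97, n = 4 each, exact permutation p = 0.0571), with tamoxifen replicate 3 level with vehicle replicate 1. For Chi3l3 the difference was 2.40 (-2.20 ± 1.30, n = 3, against -4.60 ± 0.83, n = 4), with an exact permutation p of 0.0571, the smallest that 3 against 4 allows. Mrc1 differed by 0.79 (exact permutation p = 0.143), Arg1 by 1.74 (0.114) and Il4ra by 0.07 (0.914), with n = 4 each. The 6 p-values of these tests are not adjusted. Mrc1 in tamoxifen replicate 2, at -0.63, was near replicates 1 (-0.19) and 3 (-0.75), and replicate 4 (-1.92) lay below every vehicle tumor, while the highest Chi3l3 was in replicate 3 (-0.71), the tumor with the lowest core level.

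**Figure D3:**
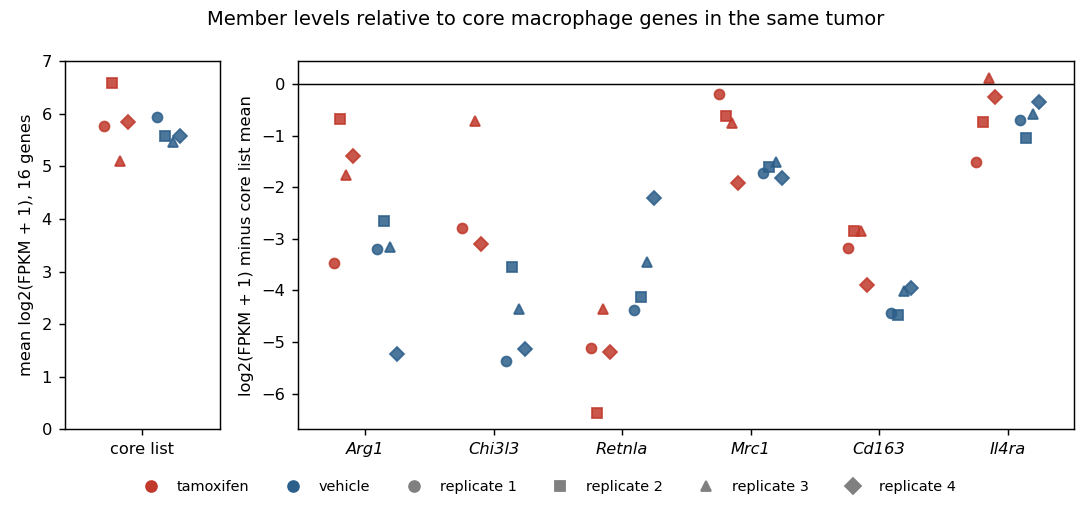
Left, mean log2(FPKM + 1) of 16 core macrophage genes per tumor; right, log2(FPKM + 1) of each tested member minus that mean, in tamoxifen (red, left of each pair) and vehicle tumors (blue), with symbols for replicates. Cd163 and Chi3l3 lie higher in every tamoxifen tumor measured than in every vehicle tumor, by 1.03 and 2.40 on average, and Retnla lower by 1.71 with values of both groups near -4.4.

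The genes whose levels followed each member most closely over the libraries were found by the root mean square difference of log2(FPKM + 1) after each gene's own mean was removed. Arg1 was nearest to Retnlg, a resistin-like gene of neutrophils (0.79), Itgam, an integrin chain of myeloid cells (0.82), and Saa3, an acute phase gene of macrophages (0.82). Mrc1 was nearest to Amica1, an adhesion gene of leukocytes (0.21), Msr1, the macrophage scavenger receptor (0.21), and Capn6 (0.22). Cd163 was nearest to Pdgfra, a receptor tyrosine kinase of mesenchymal cells (0.21), Htr2b, a serotonin receptor (0.22), and the noncoding RNaseP_nuc (0.22). Retnla was nearest to Batf2, an interferon-induced transcription factor (0.27), and to the MHC class II genes H2-Ob (0.31) and H2-DMb2 (0.34). Chi3l3, over 7 libraries, was nearest to Bpifa2 (0.50), Nell2 (0.55) and Phyhipl (0.62), and Il4ra to Plxnd1 (0.17), Fam38a (0.20) and C4b (0.20). Genes picked this way share the group difference of the member by construction.

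The signals upstream of these genes were looked at next. Of 9 tested genes for the interleukin 4 and 13 receptors and the Stat6 pathway none passed the threshold (median log2 fold change -0.10), and the lowest p was for Il2rg, the common gamma chain, at 25.4 ± 8.25 FPKM after tamoxifen and 38.3 ± 5.54 FPKM after vehicle (SD, n = 4 each; limma adjusted p = 0.159). Ptpn6, a phosphatase that damps cytokine receptors, had a log2 fold change of -0.75 (adjusted p = 0.176). Stat6 itself measured 57.5 to 70.1 FPKM in tamoxifen tumors and 59.2 to 67.7 FPKM in vehicle tumors. The ligands were barely detected, Il4 at 0.256 to 0.450 FPKM in tamoxifen tumors and 0.159 to 0.512 FPKM in vehicle tumors, and Il13 at up to 0.0643 and 0.0440 FPKM. Of 5 tested genes on a list of type 2 initiating signals and related genes only Areg rose (28.4 ± 14.5 FPKM after tamoxifen, 2.11 ± 1.12 FPKM after vehicle, SD, n = 4 each; limma adjusted p = 0.0074). Areg encodes the growth factor amphiregulin, which is not itself an initiating signal. The alarmin gene Il33 measured 3.47 to 12.7 FPKM in tamoxifen tumors and 2.41 to 3.92 FPKM in vehicle tumors (adjusted p = 0.129). Tslp, another initiating signal, did not pass either (limma adjusted p = 0.616). None of 6 genes for the interleukin 10 receptor and its signalling passed (median -0.13), with Socs3, a feedback inhibitor of cytokine signalling, nearest (log2 fold change 0.94, adjusted p = 0.104) and Il10ra, the ligand-binding chain, next (-0.36, adjusted p = 0.274).

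Of 20 other tested genes of alternative activation 2 rose and 1 fell, with a median log2 fold change of 0.46. Clec10a, a galactose-binding lectin of macrophages and dendritic cells, rose to 7.45 to 17.6 FPKM after tamoxifen, against 2.11 to 5.52 FPKM after vehicle (limma adjusted p = 0.0463). Ccl17, a chemokine for type 2 T cells, rose to 5.35 ± 1.76 FPKM after tamoxifen, against 1.98 ± 0.703 FPKM after vehicle (SD, n = 4 each; adjusted p = 0.0454). Cd209a, a lectin of dendritic cells, fell to 0.0410 to 0.279 FPKM after tamoxifen, against 1.31 to 3.08 FPKM after vehicle (adjusted p = 0.0176). It entered the test through its vehicle values, as Retnla did, and its call was lost with the replicate block (0.0608). Leaving out any single vehicle library took the mean of Cd209a under the filter, so no test of it was made there. Folr2, F13a1 and Fcgr2b had groups that did not overlap, with tamoxifen higher, and Tgm2 with tamoxifen lower, at 44.3 to 175 FPKM against 231 to 442 FPKM in vehicle tumors, but none of them passed (adjusted p = 0.11, 0.0802, 0.115 and 0.0766; named after their values were seen). Socs2 of this list had failed estimates in every library. The calls of Clec10a and Ccl17 were near the threshold, and leaving out single libraries ended each of them in 7 of 8 cases, with adjusted p up to 0.121 and 0.105, both without vehicle replicate 3. Scaling to the same total also ended both calls (adjusted p = 0.058 for Clec10a and 0.0969 for Ccl17). So did the fit without a filter on low values (0.0814 and 0.0818). Clec10a lost its call as well with the replicate block (0.0866), the identifier covariate (0.0557) and a mean of at least 5 FPKM (0.0513).

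Of 12 tested classical activation genes none rose and 2 fell, with a median of -0.30. Both are chemokines induced by interferon gamma: Cxcl9 averaged 41.2 ± 5.77 FPKM after tamoxifen and 500 ± 115 FPKM after vehicle, and Cxcl10 62.9 ± 19.2 FPKM and 548 ± 404 FPKM (SD, n = 4 each; limma adjusted p = 0.00018 and 0.0239). The Cxcl10 call was lost with the replicate block (0.0588) and without tamoxifen replicate 1 or 2 or vehicle replicate 2 (up to 0.0701). Nos2, the inducible nitric oxide synthase that shares its substrate with arginase 1, measured 6.21, 10.2, 13.4 and 45.9 FPKM in the tamoxifen tumors, against 6.39, 7.07, 1.13 and 3.37 FPKM in the vehicle tumors (adjusted p = 0.159). Tamoxifen replicate 4 was highest for Nos2, whereas replicate 2 was highest for Arg1. The ratio of Arg1 to Nos2 FPKM was 0.639, 5.76, 0.677 and 0.459 in the tamoxifen tumors, against 0.881, 0.931, 3.54 and 0.0772 in the vehicle tumors. The groups overlapped in this ratio, and the mean log2 ratio of FPKM + 1 was 0.07 ± 1.59 after tamoxifen and -0.20 ± 1.24 after vehicle (difference 0.27, n = 4 each, exact permutation p = 0.8). Of 13 other tested genes of arginine metabolism Odc1, which turns the ornithine made by arginase into polyamine, fell to 19.6 ± 4.35 FPKM after tamoxifen, against 35.0 ± 4.22 FPKM after vehicle (adjusted p = 0.032), a call lost with the replicate block (0.0522) and with scaling to the same total (0.282). In all, the Odc1 call was lost in 7 of 19 alternative fits.

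Among relatives of the secreted members 1 gene fell and 1 rose. Of the chitinase-like family, Chid1 fell to 12.6 ± 2.45 FPKM after tamoxifen, against 24.5 ± 2.84 FPKM after vehicle (SD, n = 4 each; limma adjusted p = 0.0194), a call lost with scaling to the same total (0.184) and without vehicle replicate 2, 3 or 4 (up to 0.0653). Chi3l1 averaged 48.8 ± 26.3 FPKM in tamoxifen tumors and 19.5 ± 8.43 FPKM in vehicle tumors (adjusted p = 0.161). Of the resistin-like family, Retnlg rose to 8.31 ± 6.03 FPKM after tamoxifen, against 0.641 ± 0.587 FPKM after vehicle (adjusted p = 0.0473). Retnlg entered the test through its tamoxifen values, since its vehicle mean was under 1 FPKM. The Retnlg call was lost with the replicate block (0.0981), median-ratio scaling (0.052) and the identifier covariate (0.065), and on leaving out any single library but tamoxifen replicate 1 (up to 0.129, without vehicle replicate 3). Retnlb, of goblet cells, measured 67.8 to 289 FPKM in tamoxifen tumors and 32.1 to 92.2 FPKM in vehicle tumors (adjusted p = 0.262), and Retn had a log2 fold change of -0.71 (adjusted p = 0.283). Of 12 tested scavenger receptors and genes of the Cd163 pathway Scara5, a ferritin receptor, rose to 4.00 ± 1.90 FPKM after tamoxifen, against 0.819 ± 0.776 FPKM after vehicle (adjusted p = 0.0454), a call lost with the replicate block (0.0971) and on leaving out any single library but tamoxifen replicate 3 or vehicle replicate 4 (adjusted p up to 0.125, without vehicle replicate 3). Scara5 likewise entered the test through its tamoxifen values. Ccl11, the eotaxin relative of Ccl24, did not pass (adjusted p = 0.216), and Ccl26 was listed at 0 FPKM in every library.

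**Figure D4:**
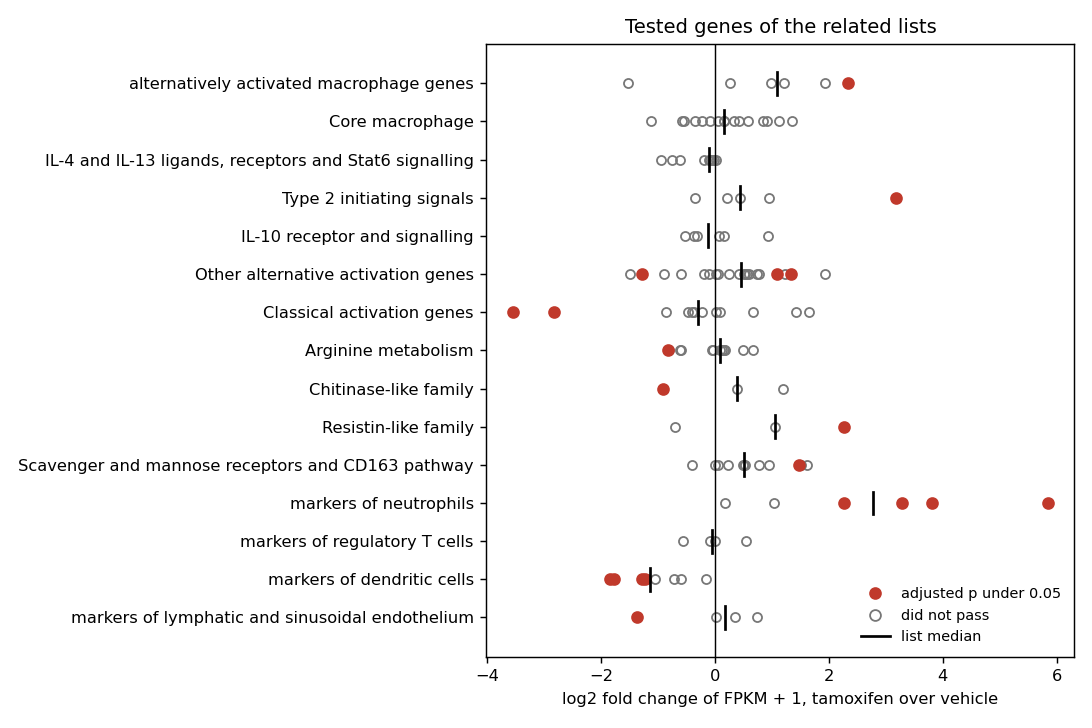
Log2 fold change of FPKM + 1 (tamoxifen over vehicle, horizontal axis) of each tested gene in the members' list and in 14 other lists, filled red where the adjusted p was under 0.05; black ticks mark list medians. The neutrophil markers reach 5.84, the dendritic cell markers all lie left of 0, and the members spread from -1.53 to 2.34.

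Markers of other cells that can express the members were looked at, and some of them differed between the groups. Chi3l3 is also known in neutrophils and their precursors. Of 6 tested neutrophil markers 4 rose, Ly6g, S100a8, S100a9 and Retnlg. Csf3r and Mmp8 did not pass (log2 fold change 0.17 and 1.03, limma adjusted p = 0.858 and 0.176), and the groups overlapped for Csf3r. Most of the sum of the 12 markers was Ly6g, S100a8 and S100a9. That sum was 182 to 479 FPKM in tamoxifen tumors and 7.58 to 28.4 FPKM in vehicle tumors, with no marker at 0 in every library. Ly6g alone measured 97.9 to 169.8 FPKM in tamoxifen tumors and 0.274 to 3.58 FPKM in vehicle tumors (adjusted p = 0.00225). All 8 dendritic cell markers had negative changes and 4 fell, Batf3, Clec9a, Xcr1 and Cd209a, with sums of 14.6 to 22.1 FPKM in tamoxifen tumors and 39.4 to 58.6 FPKM in vehicle tumors. The Xcr1 call was lost with the replicate block (0.0527) and without vehicle replicate 2 (0.0541). Xcr1 entered the test through its vehicle values, as Cd209a did. Their part in the differences of Chi3l3, Retnla and Clec10a was not tested. Sums for the 7 eosinophil markers were 1.36 to 6.20 FPKM in tamoxifen tumors and 3.53 to 11.8 FPKM in vehicle tumors. In the same order they were 1.74 to 8.90 FPKM and 2.25 to 6.44 FPKM for the 8 mast cell markers. For the 5 regulatory T cell markers they were 12.2 to 17.2 FPKM and 14.7 to 21.0 FPKM. Only 1 eosinophil marker, Prg2, and 1 mast cell marker, Mcpt1, had enough signal to test, and neither passed. None of 4 tested regulatory T cell markers passed, among them Ctla4 and Tnfrsf18. Of the untested eosinophil markers, Siglec5 was lower in every tamoxifen tumor (0.0905 to 0.311 FPKM) than in every vehicle tumor (0.410 to 1.16 FPKM). Ccr3 averaged 0.234 FPKM after tamoxifen and 1.51 FPKM after vehicle, with overlapping groups. Ear1 and Il5ra averaged higher after tamoxifen, at no more than 0.258 FPKM. Liver also makes arginase 1, and the 5 liver markers summed to 1.28 to 2.04 FPKM in tamoxifen tumors and 2.35 to 4.95 FPKM in vehicle tumors, most of it Ttr (log2 fold change -0.65, adjusted p = 0.147). Ttr, Cps1 and Otc were lower in every tamoxifen tumor than in every vehicle tumor, and Alb reached at most 0.0422 FPKM in tamoxifen tumors and 0.0717 FPKM in vehicle tumors. None of 8 B and plasma cell markers, a class that can make interleukin 10, passed. Their median log2 fold change was -0.62, with 7 negative, among them Cd79a (-0.85, adjusted p = 0.446), and Sdc1 positive (0.95, adjusted p = 0.12). Of 4 tested lymphatic and sinusoidal endothelium markers, cells that can express Mrc1, Flt4 fell (adjusted p = 0.0465) and the other 3 had changes from 0.01 for Lyve1 to 0.74 for Pdpn, with Ccl21a listed at 0. The Flt4 call was lost with scaling to the same total (0.139) and on leaving out any single library but tamoxifen replicate 3 (up to 0.119, without vehicle replicate 3). Of 7 tested intestinal epithelium markers none passed, with Krt20 (log2 fold change 1.35, adjusted p = 0.0607) and Krt19 (1.00, adjusted p = 0.0744) nearest, and the sums of the 8 markers were 997 to 2381 FPKM in tamoxifen tumors and 680 to 1138 FPKM in vehicle tumors. Of 6 tumor lineage markers Edn3 fell (adjusted p = 0.0333), a call lost with the replicate block (0.0664), scaling to the same total (0.257) and the omission of any single library but tamoxifen replicate 1 (up to 0.0903, without vehicle replicate 3).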

How the data were processed

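RNA of 8 explanted cecal tumors was sequenced, and groups and replicate numbers come from the sample titles. Per the file headers, the authors deposited FPKM for each gene and library with confidence bounds and a status. STAR 2.3, Cufflinks, Cuffdiff and the build mm9 are listed in the submitters' processing notes, without their roles. For annotation, scaling and reads with several matches the sources used here give nothing. In all, 178 deposited FPKM values with a failed or high-data status were set to missing, and rows were summed per symbol. The group comparison used limma 3.58.1 (R 4.3.3, eBayes with trend, 2-sided) on log2(FPKM + 1), which understates changes of low genes, for genes with a mean of at least 1 FPKM and 2 estimates in each group. The procedure was tested on simulated data. The members and all gene lists were chosen with earlier results of these data known. All 9 members were named, and from each list up to 4 called genes with the smallest p or, with none called, the 2 with the smallest p. Alternatives covered pseudocounts, filters, scalings, failed values, covariates, weights and each library left out. Other genes named (C1qa, C1qb, C1qc, Stat6, Il4, Il13, Il33, Tslp, Nos2, Chi3l1, Retnlb, Retn, Alb, Cps1, Otc, Lyve1, Pdpn, Csf3r, Mmp8, Siglec5, Ccr3, Ear1, Il5ra, Ighj1, Ighj4, and Folr2, F13a1, Fcgr2b and Tgm2) were chosen after their values were seen. No gene set test was run.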

Additional observations from a re-analysis of the deposited data

Results flagged for a closer look

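In groups of 4 tumors a value was marked when its gap to the nearest other value took up nearly the whole range of the group, and chance marks about 1 in 20 groups. Of 29 groups looked at, 3 were marked. Vehicle replicate 2 had 0.0161 FPKM of Chi3l4 where the other 3 vehicle tumors were listed at 0, and 0.879 FPKM of Il10 where the others had 0.243 to 0.343 FPKM. The Chi3l4 mark carries no weight, since beside 3 values of 0 any value above 0 is marked. Tamoxifen replicate 2 had a log2 ratio of Arg1 to Nos2 of 2.42, where the other tamoxifen tumors were between -1.09 and -0.52. No cause was tested.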

How the results depend on the processing

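Counts of all genes called were 358 higher and 461 lower. They became 207 higher with a mean of at least 5 FPKM, 154 and 75 with scaling to the same total, 113 and 139 with the replicate block, and 569 higher with quality weights, and ran from 103 to 420 and from 160 to 436 when single libraries were left out. The immunoglobulin segments Ighj1 and Ighj4 together held 5.42% (tamoxifen replicate 1) to 54.6% (vehicle replicate 1) of the total FPKM of a library, so scaling to the same total depends largely on them. Among the members the count called higher, 1, fell to 0 without a filter, with the stricter filter and with failed values as listed, stayed 1 with the identifier covariate but as Mrc1 (adjusted p = 0.0438) in place of Chi3l3 (0.0672), rose to 2 with quality weights, and was 0 or 1 (range 0 to 1) without single libraries. The count called lower, 0, became 1 with pseudocounts of 0.1 and 0.25 FPKM and with the identifier covariate. Relative to the core list, Retnla reached an exact permutation p of 0.0286 with pseudocounts of 0.1 (-2.755) and 0.25 FPKM (-2.457) and with total scaling (-1.765). Arg1 reached the same exact permutation p against Csf1r alone (2.284). That is the lowest possible with 70 arrangements, and these p-values are not adjusted. Cd163 ranged from 0.915 to 1.262 without single libraries, where 0.0571 is the smallest p, and was 1.03 with the replicate block as paired differences (exact p = 0.125). Values near 0 changed sign: Il4ra relative to the core list (-0.163 to 0.383) and the ratio of Arg1 to Nos2 (-0.511 to 0.748) without single libraries, and likewise the log2 fold changes of Mcpt1 (-0.344 to 0.022, and 0.175 with quality weights) and Prg2 (-0.515 to 0.201). The cause was not tested. Same-numbered tumors shared only a number (correlations of their deviations -0.156, -0.002, 0.145 and 0.063), and Chi3l3 kept its call with the block (adjusted p = 0.0381). Chi3l4, Il10 and Ccl24 lay under the filter.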
